A study of Mus musculus with 9 samples.

Results

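Semaphorin, ephrin, netrin and Slit signalling genes were examined in cultured mouse regulatory T cells (Tregs) with and without the histone methyltransferase Ezh2. The set was chosen by symbol: protein-coding genes whose names begin with Sema, Plxn, Epha, Ephb, Efna, Efnb, Robo, Unc5, or Slit or Ntn and a digit, together with Nrp1, Nrp2 and Dcc. Of 70 such genes among the 43432 identifiers of the count table, 51 had at least 10 counts summed over the 9 libraries and are the members described here. The other 19 had 8 genes at 0, Dcc among them, and 11 with 1 to 6 counts, whereas Efna3 and Epha7, at 10 counts each, lay just inside the limit. Of the 51 members, 38 passed edgeR's filter on low counts and were tested. The prefix Unc5 also takes in Unc50, which encodes a Golgi protein, and Unc5cl, which encodes an intracellular relative of the Unc5 receptors. Neither is a netrin receptor.

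RNA was sequenced from 4 Ezh2-deficient and 5 WT cultures, which the series calls biological replicates. Cells were sorted as CD62L-high Tregs from C57BL/6 mice, activated with beads carrying antibodies to CD3 and CD28, and kept in interleukin-2 (2000 U/ml) to day 4. All 9 libraries came from mice with Foxp3-Cre-GFP, a Cre recombinase and reporter driven from the Treg gene Foxp3, and R26-LSL-RFP, a fluorescent reporter that Cre switches on. The Ezh2-deficient mice were Ezh2-fl/fl, WT replicates 2 to 5 were Ezh2-+/+, and WT replicate 1 was Ezh2-fl/+. The sources used here give neither ages nor any pooling of mice.

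Semaphorins are secreted or membrane-bound ligands of plexins, and neuropilins are co-receptors that help class 3 semaphorins, and also VEGF, to signal. Ephrins are membrane-bound ligands of Eph receptor tyrosine kinases, so both partners sit on touching cells, and netrins and Slits are secreted ligands of Dcc, neogenin and Unc5 receptors and of Robo receptors. These families are known for steering growing axons. In the immune system Nrp1 is a surface marker of thymus-derived Tregs and Sema4d, also called CD100, is abundant on T cells. Ezh2 is the methyltransferase within Polycomb repressive complex 2, which places a repressive methyl mark on histone H3, often at CG-rich promoters of developmental genes.

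Total counts were 33718125 to 62201921 in the Ezh2-deficient and 32469450 to 59796319 in the WT libraries. Ezh2 was at 153 to 167 CPM (counts scaled to a common library size) in Ezh2-deficient and 234 to 360 CPM in WT libraries, without overlap. The 6 Treg genes Foxp3, Il2ra, Ctla4, Ikzf2, Cd4 and Tnfrsf18 summed to 10238 to 11129 and 9259 to 10103 CPM. Of these Foxp3 was higher, at 1647 to 1968 against 1293 to 1542 CPM (log2 fold change 0.30, edgeR adjusted p = 0.0313). The others did not pass, with Cd4 at a log2 fold change of -0.19 (edgeR adjusted p = 0.0644). Hypoxia-response transcripts, scored over 25 genes, split both groups, with scores of 0.577 and 0.783 in Ezh2-deficient replicates 1 and 4 and 0.677, 0.613 and 0.970 in WT replicates 1, 2 and 4, against -1.01 to -0.782 in the other 4 libraries. The CD8 T cell gene Cd8a ranged from 0.361 to 79.9 and from 1.98 to 97.6 CPM. Of 9 myeloid marker genes Clec9a was at 0, and Lyz2 and Csf1r were under 0.1 CPM on average. The sum, carried mostly by Itgam, was 23.2 to 30.8 in Ezh2-deficient against 14.2 to 20.3 CPM in WT libraries. Of the 4 tested genes, 2, Itgam and Adgre1, were higher. Cd68 was level (2.73 against 2.67 CPM). Fcer1g went the other way without passing (0.423 against 1.33 CPM, log2 fold change -1.59, edgeR adjusted p = 0.135). Of 5 B cell markers 1 of 4 tested, Cd79a, was lower, and the sums were 12.6 to 17.6 against 16.9 to 19.7 CPM. Sums over 5 fibroblast markers stayed under 3 CPM in every library. Of 5 endothelial markers only Pecam1, which T cells also express, was tested. The part of these markers in the results on the members was not tested.

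Promoter sequence from RefSeq's GRCm38.p6 windows was set beside the changes for 4 of the 7 called members that have a window, picked after their values were seen. Each stretch below is the 200 bases from 250 to 51 bases before the RefSeq transcript start, 5′ to 3′ on the gene's own strand, and capitals mark CG dinucleotides, the letters that CG-rich promoters are defined by. The EphB receptor genes Ephb2 (chr4:136836063-136836262, minus strand) and Ephb6 (chr6:41605261-41605460, plus strand) and the neuropilin gene Nrp2 (chr1:62703067-62703266, plus strand) rose without Ezh2, and the semaphorin gene Sema6b (chr17:56140394-56140593, minus strand) fell.
Ephb2: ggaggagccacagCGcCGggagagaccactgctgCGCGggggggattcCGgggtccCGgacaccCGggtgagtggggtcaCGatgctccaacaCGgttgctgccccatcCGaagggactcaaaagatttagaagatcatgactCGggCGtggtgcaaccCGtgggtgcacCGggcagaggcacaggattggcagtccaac
Ephb6: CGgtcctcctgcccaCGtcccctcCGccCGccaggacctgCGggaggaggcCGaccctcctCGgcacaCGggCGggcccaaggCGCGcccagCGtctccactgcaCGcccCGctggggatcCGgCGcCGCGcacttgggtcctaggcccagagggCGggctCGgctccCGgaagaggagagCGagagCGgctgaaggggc
Nrp2: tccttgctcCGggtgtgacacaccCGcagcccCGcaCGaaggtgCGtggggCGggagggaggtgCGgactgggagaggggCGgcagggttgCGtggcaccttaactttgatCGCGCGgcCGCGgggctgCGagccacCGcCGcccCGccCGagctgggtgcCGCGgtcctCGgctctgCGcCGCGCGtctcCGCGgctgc
Sema6b: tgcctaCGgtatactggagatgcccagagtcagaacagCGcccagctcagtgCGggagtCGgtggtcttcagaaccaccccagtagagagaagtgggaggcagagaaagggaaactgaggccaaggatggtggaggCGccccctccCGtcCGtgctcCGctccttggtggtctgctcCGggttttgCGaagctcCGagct
These stretches hold 14, 23, 28 and 11 CG dinucleotides. In the whole RefSeq window of 300 bases, from 250 before to 50 after the start, they hold 24, 34, 37 and 29. At least as many CG dinucleotides were in 27.9%, 10.5%, 7.51% and 17.7% of the 20150 windows of protein-coding genes. The windows of the other 3, Nrp1, Ntn4 and Plxnb2, which all rose, hold 14, 31 and 27. Windows were found for 45 of the 51 members, taking the one nearest the gene's annotated 5′ end. The median was 29 CG dinucleotides over the 7 members with a window that passed the test, 20 over the 25 tested members that did not, 22 over the 13 members too low to be tested and 14 over all protein-coding windows. Ntn1 and Sema3b, which fell, had no window, so Sema6b is the only fall among the 7. The protein-coding windows include genes that were not tested here. Whether CG number goes with a change in level was not tested. Both strands read the same for CG. Histone marks at these promoters were not analysed here.

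Loss of Ezh2 went with more neuropilin, Ephb2, Ephb6 and netrin-4 transcript and with less netrin-1, Sema3b and Sema6b transcript. The calls of Nrp1, Plxnb2 and Nrp2 were the less stable ones, missed in 6, 6 and 7 of 16 alternative fits. At a threshold of 0.05 after Benjamini-Hochberg adjustment over all 13685 tested genes (edgeR, quasi-likelihood test), 6 members rose, namely Nrp1, Nrp2, Plxnb2, Ephb2, Ephb6 and Ntn4, and 3 fell, namely Ntn1, Sema3b and Sema6b. The 9 are 23.7% of the 38 tested members, near the 21.9% of all tested genes that passed (13.1% higher and 8.8% lower). The median log2 fold change, Ezh2-deficient over WT, was 0.16 over the members and 0.00 over all tested genes, and the median size regardless of sign was 0.34 and 0.24. For 8 of the 38 every library of one group lay beyond those of the other, close to the 21.2% of all tested genes.

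**Figure D1:**
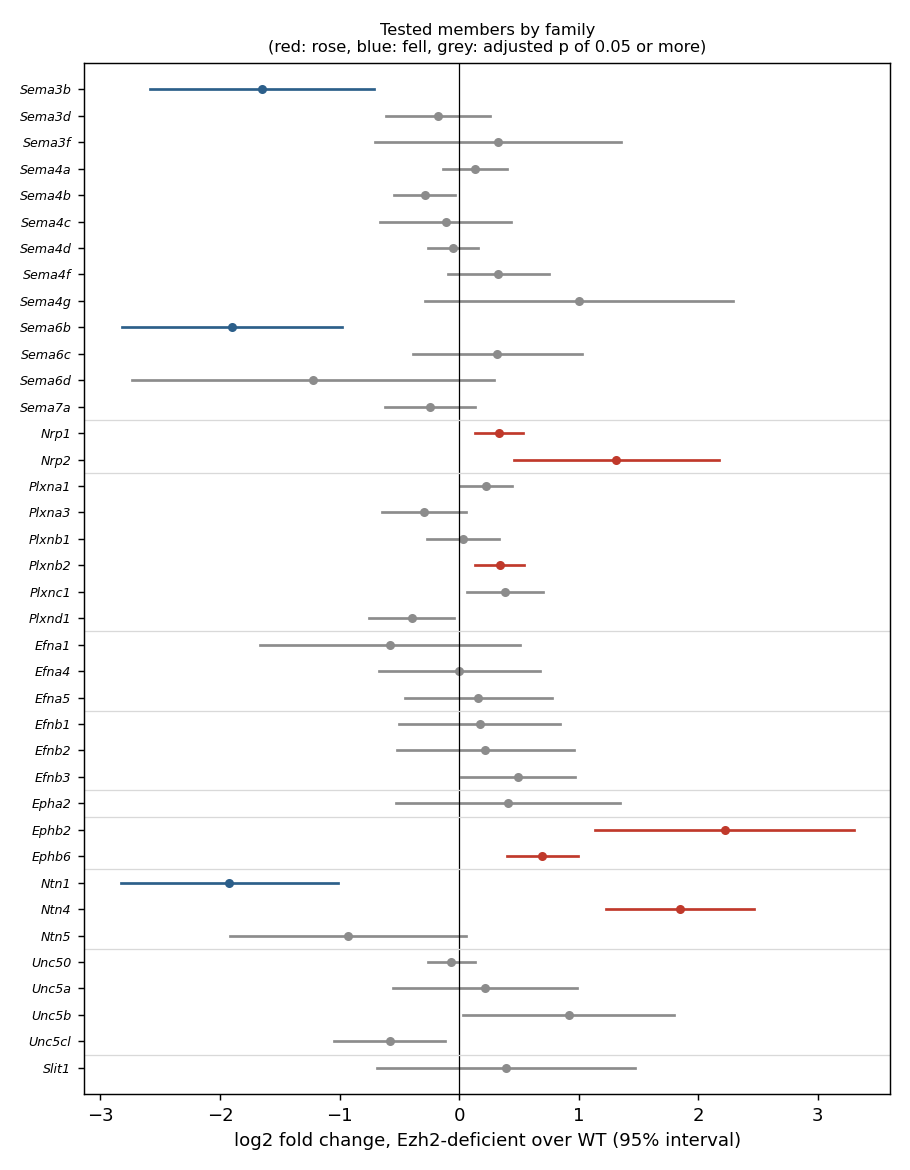
Log2 fold change, Ezh2-deficient (n = 4) over WT (n = 5), of the 38 tested members, grouped by family, with 95% intervals from edgeR's fit. The 6 red members lie right of 0 and the 3 blue ones left of it, from -1.92 for Ntn1 to 2.22 for Ephb2.

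Semaphorins were the largest family, with 15 members of which 13 were tested, 0 rose and 2 fell. Sema4d (ENSMUSG00000021451; GRCm38 chromosome 13, 51685529 to 51793747) was the most abundant member per length, with 92.2 CPM per kb of exon in WT and 88.9 in Ezh2-deficient libraries. Its levels were 724, 674, 606 and 726 CPM in Ezh2-deficient replicates 1 to 4 and 744, 776, 613, 766 and 641 CPM in WT replicates 1 to 5. The groups overlapped throughout (log2 fold change -0.05, 95% interval -0.26 to 0.15, edgeR adjusted p = 0.729). Fewer cells of a type and less RNA per cell cannot be told apart in such bulk libraries, here or below.

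Among the other abundant semaphorins no change passed the test. Sema4a, a membrane ligand that binds Nrp1 on Tregs, was at 126, 136, 143 and 117 CPM against 141, 145, 106, 99.3 and 103 CPM (log2 fold change 0.14, 95% interval -0.13 to 0.40). WT replicates 1 and 2 were above every other WT library, and the Ezh2-deficient values lay within the WT range. Sema7a, a GPI-anchored semaphorin that binds Plxnc1 and integrins, showed the same split inside the WT group, with 70.7 and 61.4 CPM in replicates 1 and 2 and 40.7, 43.0 and 38.9 CPM in replicates 3 to 5. The Ezh2-deficient libraries held 38.7, 47.6, 41.6 and 44.2 CPM of it (log2 fold change -0.24, 95% interval -0.62 to 0.14). Sema4b was at 24.1, 28.4, 27.4 and 21.6 against 25.4, 29.9, 35.5, 31.0 and 32.9 CPM (log2 fold change -0.29, 95% interval -0.54 to -0.03, edgeR adjusted p = 0.0961). Its levels overlapped only through WT replicate 1, and the edgeR fit without that library put it past the threshold (-0.36, adjusted p = 0.0410), as did the fit with the hypoxia score as a covariate (-0.33, adjusted p = 0.0187). Leaving out an overlapping library favours a call, and Sema4b missed the threshold in 14 of 16 alternatives. Sema4f was at 10.7, 15.2, 17.2 and 8.24 against 9.93, 9.78, 10.9, 8.86 and 11.7 CPM, with the highest and the lowest value both in Ezh2-deficient libraries (log2 fold change 0.33, 95% interval -0.10 to 0.75).

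The 2 semaphorins that fell were weakly expressed. Sema6b (chromosome 17, 56123085 to 56140343), a transmembrane class 6 semaphorin that binds A-type plexins, was at 0.564, 0.525, 0.452 and 0.618 CPM in the Ezh2-deficient and 1.44, 1.91, 1.52, 4.31 and 1.01 CPM in the WT libraries. The 4 Ezh2-deficient libraries lay close together below all WT libraries, of which replicate 4 stood apart. The log2 fold change was -1.90 (SE 0.42, edgeR adjusted p = 0.00825), 3.73-fold lower, and it passed in 16 of 16 alternatives, -1.43 without WT replicate 4. Sema3b (chromosome 9, 107597674 to 107609229), a secreted class 3 semaphorin that signals through neuropilins, was at 0.395, 0.206, 0.151 and 0.553 against 1.08, 0.987, 0.947, 1.59 and 0.673 CPM. No Ezh2-deficient library reached the lowest WT library (log2 fold change -1.65, SE 0.43, edgeR adjusted p = 0.0180; 16 of 16 alternatives). In counts these are 5 to 34 per Ezh2-deficient library for Sema3b and 15 to 38 for Sema6b.

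Of the other low semaphorins Sema6d, a second class 6 member, was at 0.874, 0.731, 0.271 and 3.59 against 4.23, 2.53, 2.01, 6.35 and 1.29 CPM. Ezh2-deficient replicate 4, the library with the highest Cd8a of its group, lay far above the other Ezh2-deficient libraries. The fall of Sema6d did not pass with that library (log2 fold change -1.22, edgeR adjusted p = 0.222) and passed without it (-2.40, adjusted p = 0.0163). Sema6d missed the threshold in 12 of 16 alternatives. The secreted Sema3d was at 3.67 ± 0.314 (SD, n = 4) against 4.14 ± 1.03 CPM (SD, n = 5), and Sema3f, Sema4c, Sema4g and Sema6c had mean levels of 0.327 to 2.52 CPM in both groups and did not pass.

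Sema5a, also a ligand of plexins, was too low to be tested in the fit above but its counts split by group. It had 0 counts in all 4 Ezh2-deficient libraries and 5, 3, 4, 3 and 8 counts in WT replicates 1 to 5. Set against a floor of 3 counts over the Ezh2-deficient group, the 23 WT counts gave a level 6.13-fold lower there. That fold carries no error for the WT counts and is not a lower bound. Having counts in WT libraries alone, Sema5a met the limit of 10 counts only through the group where it was high. Neither this fold nor a fit is independent of that limit. edgeR's fit with no filter on low counts passed it (adjusted p = 0.0284), beside 12.3% of all 22839 genes in that fit. Sema3e, the ligand of Plxnd1, had 0 against 11 counts, 7 of them in WT replicate 4, and did not pass in that fit (adjusted p = 0.131).

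Both neuropilin genes rose. Nrp1 (ENSMUSG00000025810; chromosome 8, 128358604 to 128503363) was at 237, 263, 265 and 287 CPM in Ezh2-deficient and 236, 230, 204, 180 and 191 CPM in WT libraries. The groups did not overlap, though Ezh2-deficient replicate 1 and WT replicate 1 were nearly level. The mean of 263 ± 20.6 (SD, n = 4) against 208 ± 24.2 CPM (SD, n = 5) was 1.26-fold higher (log2 fold change 0.33, SE 0.09, edgeR adjusted p = 0.0235). The call ended when any of Ezh2-deficient replicates 2, 3 and 4 and WT replicate 3 was left out (0.27 to 0.31, adjusted p = 0.0555 to 0.0870), and when both highest-Cd8a libraries, replicate 4 of each group, were (0.24, adjusted p = 0.104).

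Nrp2 (ENSMUSG00000025969; chromosome 1, 62703285 to 62818695), the relative of Nrp1 with its own preference among class 3 semaphorins, was far rarer, at 0.168 against 21.3 CPM per kb of exon for Nrp1 in WT libraries. It was at 5.44, 5.75, 4.94 and 3.72 CPM without Ezh2 and at 0.744, 1.73, 1.86, 1.38 and 4.23 CPM in WT libraries. WT replicate 5 lay inside the Ezh2-deficient range, and the other 4 WT libraries were below all of it. The log2 fold change was 1.31 (SE 0.39, edgeR adjusted p = 0.0334), 2.48-fold higher, and 1.79 without WT replicate 5. Leaving out any of Ezh2-deficient replicates 1, 2 and 3 and WT replicates 2, 3 and 4 ended the call (1.21 to 1.30, adjusted p = 0.0683 to 0.0796), as did the fit without the highest-Cd8a libraries (1.32, adjusted p = 0.0870).

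Of the 8 plexins, 6 were tested, 1 rose and 0 fell. Plxnb2 (ENSMUSG00000036606; chromosome 15, 89155549 to 89180788), a receptor of class 4 semaphorins and the most abundant plexin per kb of exon, was at 133, 170, 135 and 126 CPM against 99.3, 112, 119, 118 and 110 CPM. All 4 Ezh2-deficient libraries lay above all 5 WT libraries, replicate 2 the highest. It rose 1.26-fold (log2 fold change 0.34, SE 0.10, edgeR adjusted p = 0.0253). Leaving out any of Ezh2-deficient replicates 1, 2 and 3 and WT replicates 1 and 2 ended the call (0.21 to 0.34, adjusted p = 0.0551 to 0.0767).

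None of the next plexins in abundance passed the threshold in the edgeR test above. Plxnd1, a receptor of Sema3e and Sema4a, was at 66.7, 71.5, 63.1 and 52.9 against 70.4, 80.8, 108, 99.0 and 59.9 CPM (log2 fold change -0.40, 95% interval -0.75 to -0.04, edgeR adjusted p = 0.0980). It passed without WT replicate 5, the lowest WT library (-0.51, adjusted p = 0.0245), but missed the threshold in 14 of 16 alternatives. Plxnc1, the receptor of Sema7a, was at 32.02, 35.1, 43.2 and 28.3 against 30.4, 31.7, 26.2, 23.7 and 20.8 CPM (log2 fold change 0.38, 95% interval 0.06 to 0.70, edgeR adjusted p = 0.0789). Plxna1, which pairs with neuropilins, was at 47.4, 52.5, 49.4 and 38.5 against 36.5, 44.3, 40.4, 41.5 and 38.0 CPM. With all libraries the change did not pass (log2 fold change 0.23, edgeR adjusted p = 0.121). Ezh2-deficient replicate 4 alone lay within the WT range, and without it the change passed (0.29, adjusted p = 0.0453). Leaving out an overlapping library favours a call, and Plxna1 missed the threshold in 14 of 16 alternatives. Plxna3 was at 11.6, 16.9, 11.3 and 15.1 against 15.2, 15.2, 21.5, 18.2 and 14.3 CPM (log2 fold change -0.30, 95% interval -0.65 to 0.05). Plxnb1, the high-affinity receptor of Sema4d, was at 9.97 ± 1.64 (SD, n = 4) against 9.72 ± 0.768 CPM (SD, n = 5), with a log2 fold change of 0.03 and an interval of -0.27 to 0.34. Plxna2 and Plxnb3 had too few counts to be tested, 18 against 4 and 27 against 21.

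**Figure D2:**
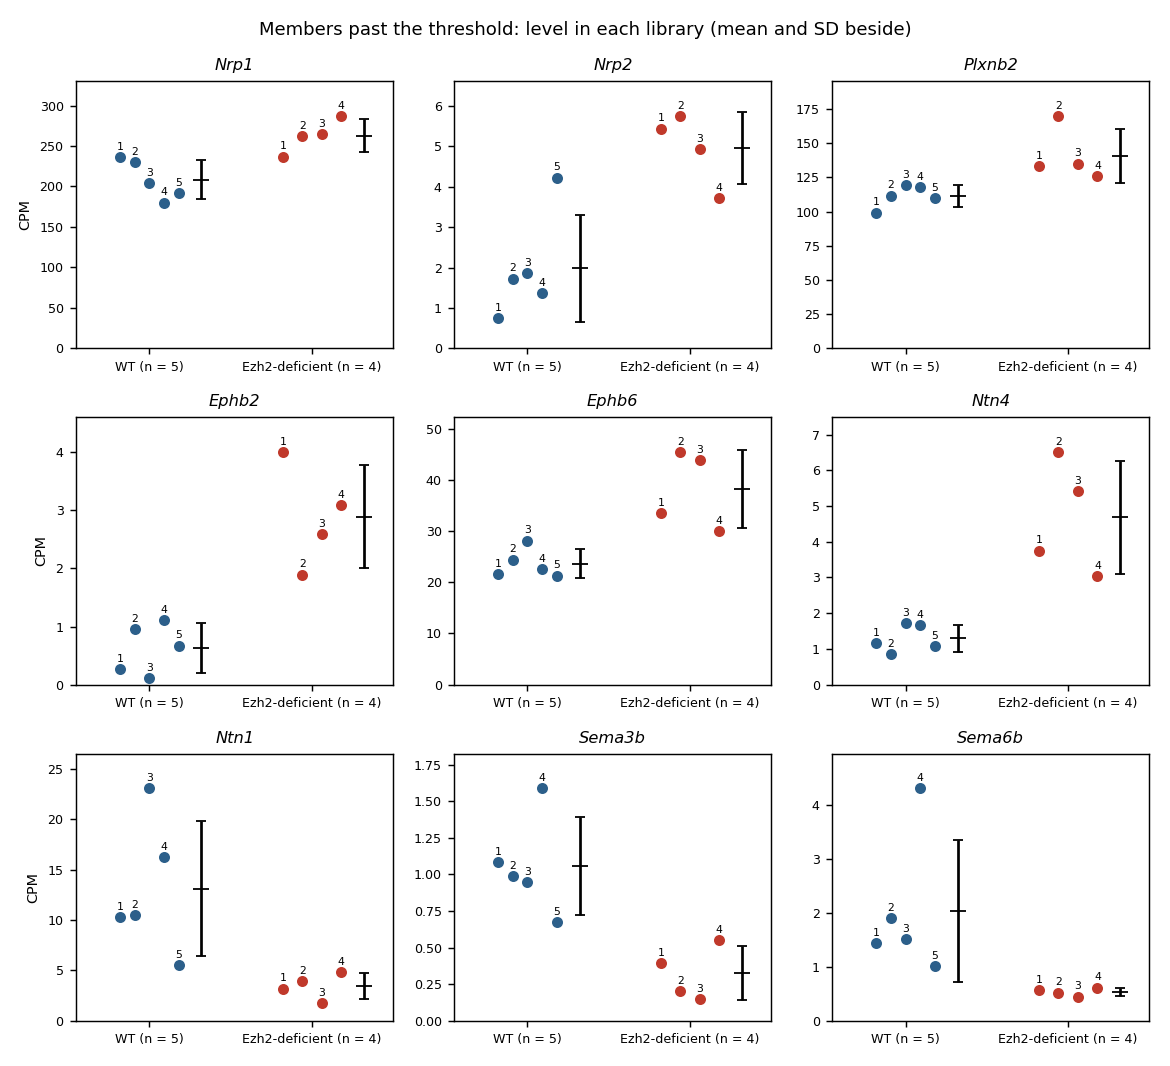
CPM of the 9 members past the threshold in each WT (blue, n = 5) and Ezh2-deficient library (red, n = 4), labelled by replicate, with the mean and SD in black and each axis starting at 0. The groups are apart in 8 panels, and in the Nrp2 panel WT replicate 5 at 4.23 CPM lies above Ezh2-deficient replicate 4 at 3.72 CPM.

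Both tested EphB receptor genes rose, and no ephrin gene passed the test. Eph receptors and ephrins together had 2 calls among 9 tested genes, or 22.2%, near the 21.9% of all tested genes. Whether receptors and ligands differ was not tested. Of 8 Eph receptor genes with enough counts to be members, 3 were tested and 2 rose. Ephb2 (ENSMUSG00000028664; chromosome 4, 136647539 to 136835988), an active receptor tyrosine kinase, was at 4.00, 1.90, 2.59 and 3.09 CPM in Ezh2-deficient and 0.271, 0.957, 0.115, 1.11 and 0.673 CPM in WT libraries, and was the least abundant tested member per kb of exon in WT. Every Ezh2-deficient library was above every WT library. The log2 fold change of 2.22 (SE 0.50, edgeR adjusted p = 0.00863), 4.66-fold higher, was the largest among the 38 tested members and passed in 16 of 16 alternatives (1.94 to 2.55).

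Ephb6 (ENSMUSG00000029869; chromosome 6, 41605482 to 41620509), whose product lacks kinase activity and is known from T cells and thymocytes, was the most abundant Eph receptor. It was at 33.5, 45.5, 43.9 and 30.0 CPM against 21.7, 24.4, 28.2, 22.6 and 21.3 CPM. Within each group the libraries with low hypoxia scores, Ezh2-deficient replicates 2 and 3 and WT replicate 3, were the highest, except for WT replicate 5, which was the lowest WT library. Ephb6 rose 1.62-fold (log2 fold change 0.69, SE 0.14, edgeR adjusted p = 0.00423), passed in 16 of 16 alternatives, and was at 0.63 with the hypoxia score as a covariate (adjusted p = 0.00199). The gene lies 5.91 Mb from Ezh2 on the same chromosome, so effects of sequence linked to the floxed allele and of the loss of Ezh2 cannot be told apart for it. WT replicate 1, with 1 floxed allele, was within the range of the other WT libraries, but 1 library cannot tell these effects apart. Epha2, the third tested receptor, was at 0.495 ± 0.113 (SD, n = 4) against 0.367 ± 0.157 CPM (SD, n = 5) and did not pass.

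Of the 8 ephrin genes 6 were tested and 0 passed. At an unadjusted p under 0.05 the edgeR test gave 1, Efnb3, and its call was not made by DESeq2 or limma-voom after adjustment either. Efnb3, a transmembrane ligand of EphB receptors, was at 1.97, 2.72, 2.92 and 2.10 against 1.59, 1.70, 1.43, 1.88 and 2.001 CPM (log2 fold change 0.49, 95% interval 0.02 to 0.97, adjusted p = 0.123). Efnb1 and Efnb2, of the same class, had log2 fold changes of 0.17 and 0.22. The most abundant ephrin per kb of exon was Efna5, a GPI-anchored ligand of EphA receptors, at 6.14 ± 1.21 (SD, n = 4) against 5.48 ± 2.14 CPM (SD, n = 5), with a log2 fold change of 0.16 and an interval of -0.46 to 0.77. Efna4 was level at 1.30 against 1.31 CPM, with a sign that turned under 10 alternatives, and Efna1 was at 0.406 against 0.622 CPM.

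The Eph family members too low for the test were Epha1, Epha3, Epha7, Epha8, Ephb3, Efna2 and Efna3. Epha3 had counts in all 5 WT libraries, 29 in all, and 3 counts in 1 Ezh2-deficient library, a ratio of 7.73 in favour of WT with an exact 95% counting interval of 2.40 to 39.6, which covers counting error only. Epha7 had 10 counts, all in Ezh2-deficient replicate 3. Efna3 had 10 counts in 2 Ezh2-deficient libraries and 0 in WT, 4.17-fold higher against a floor of 3 counts over the WT group. That fold carries no error for the 10 counts and is not a lower bound. Epha3 met the limit of 10 counts only through WT libraries, and Efna3 and Epha7 only through Ezh2-deficient ones. Their ratio and floor are therefore not independent of that limit. In edgeR's fit with no filter on low counts Efna3, Epha7 and Epha3 did not pass (adjusted p = 0.0995, 0.132 and 0.151). Epha1 shares exon bases on the opposite strand with the highly expressed Zyx, so its 15 and 16 counts are uncertain.

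Netrin genes moved in opposite directions. Ntn4 (ENSMUSG00000020019; chromosome 10, 93640681 to 93747207), a netrin related to laminin beta chains, was at 3.75, 6.51, 5.42 and 3.04 CPM against 1.17, 0.864, 1.72, 1.67 and 1.08 CPM. All Ezh2-deficient libraries were above all WT libraries, and the 2 with low hypoxia scores were the highest. It rose 3.59-fold (log2 fold change 1.85, SE 0.29) and had the smallest adjusted p of the members (edgeR adjusted p = 0.00105), at 1.72 with the hypoxia score as a covariate.

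Ntn1 (ENSMUSG00000020902; chromosome 11, 68209364 to 68400823), the secreted ligand of Dcc, neogenin and Unc5 receptors, was at 3.19, 3.95, 1.75 and 4.80 CPM in Ezh2-deficient libraries and at 10.3, 10.5, 23.0, 16.2 and 5.55 CPM in WT libraries. WT libraries spread over a wide range that stayed above all Ezh2-deficient ones. The log2 fold change was -1.92 (SE 0.41, edgeR adjusted p = 0.00853), 3.79-fold lower, and passed in 16 of 16 alternatives (-2.15 to -1.65). In WT libraries Ntn1 was above Ntn4 per kb of exon, 2.09 against 0.348 CPM per kb, and without Ezh2 the order was reversed, 0.545 against 1.25. Ntn5, which overlaps Sec1 on the opposite strand, was at 0.310, 1.32, 0.723 and 0.504 against 1.76, 1.02, 2.09, 1.32 and 0.655 CPM and did not pass (log2 fold change -0.93, edgeR adjusted p = 0.155).

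Receptors of netrins were few. Dcc had no count and Unc5c and Unc5d had 1 and 0 counts. Unc5b (chromosome 10, 60762593 to 60831581), a netrin receptor, was at 6.79, 2.15, 2.68 and 6.96 CPM against 2.71, 2.35, 2.21, 3.92 and 1.18 CPM. The 2 high Ezh2-deficient libraries were those with high hypoxia scores, and the other 2 lay within the WT range. The change did not pass (log2 fold change 0.92, edgeR adjusted p = 0.122) and passed with the hypoxia score as a covariate (1.0045, adjusted p = 0.00775). Unc5a was at 1.16 ± 0.370 (SD, n = 4) against 1.01 ± 0.394 CPM (SD, n = 5). Of the 2 genes taken in by name alone, Unc5cl was at 11.8, 14.2, 17.4 and 15.6 against 20.5, 22.4, 24.7, 30.5 and 12.6 CPM (log2 fold change -0.58, edgeR adjusted p = 0.0684), overlapping through WT replicate 5. It passed without that library (-0.75, adjusted p = 0.00705) and in DESeq2 with all libraries (-0.60, adjusted p = 0.0252). Unc5cl missed the threshold in 13 of 16 alternatives. Unc50 was at 38.2, 34.8, 35.3 and 35.0 against 40.5, 37.5, 34.7, 32.9 and 41.7 CPM (log2 fold change -0.06, 95% interval -0.26 to 0.13).

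Slit and Robo transcripts were near the floor. Slit1 was at 0.420 ± 0.153 (SD, n = 4) against 0.324 ± 0.198 CPM (SD, n = 5) and did not pass, and Slit2 and Slit3 had 2 and 0 counts over all libraries. Robo3 had 45 against 64 counts and Robo1 12 against 2, a ratio of 7.51 with an exact 95% counting interval of 1.67 to 69.0, where 9 of the 12 counts were in Ezh2-deficient replicate 4. Robo1 met the limit of 10 counts only through the Ezh2-deficient group, so its ratio is not independent of that limit. It did not pass in edgeR's fit with no filter on low counts (adjusted p = 0.305).

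**Figure D3:**
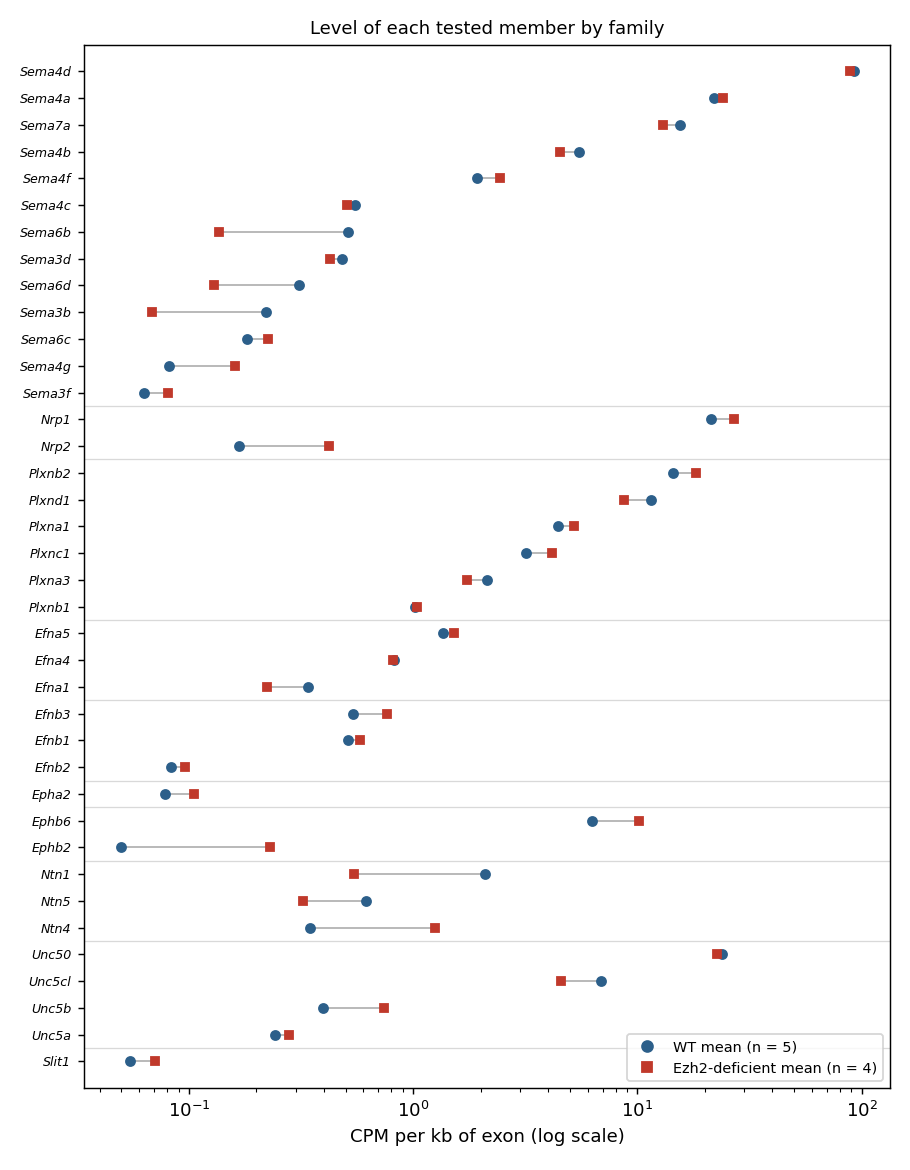
Mean CPM per kb of exon, on a log axis, of the 38 tested members in WT (blue circles, n = 5) and Ezh2-deficient libraries (red squares, n = 4), by family. Levels run from 92.2 for Sema4d down to 0.0496 for Ephb2 in WT libraries, and Ntn1 and Ntn4 change places between the groups.

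Levels were uneven within each family. Of the 38 tested members 15 averaged 10 CPM or more in either group, of which 4 passed, 18 lay between 1 and 10 CPM, of which 5 passed, and 5 were under 1 CPM in both groups, of which 0 passed. Per kb of exon the order in WT libraries after Sema4d was Unc50, Sema4a, Nrp1, Sema7a, Plxnb2 and Plxnd1. Nrp1 and Sema4a were close, at 21.3 and 22.0 CPM per kb, within the spread of the libraries.

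The hypoxia-response score changed which members passed. With the score as a covariate 13 members passed, all 9 named above and Unc5b, Sema4b, Sema4g and Sema6d. Calls over all tested genes also went up in that fit, from 3001 to 3947 of 13685 (28.8%). Sema4g was at 1.80, 1.03, 0.452 and 2.29 against 0.609, 1.36, 0.115, 1.06 and 0.393 CPM (log2 fold change 1.004, edgeR adjusted p = 0.239; 1.29, adjusted p = 0.0342, with the covariate). Sema6d changed to -1.13 (adjusted p = 0.0499). What the score stands for in these cultures was not tested.

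**Figure D4:**
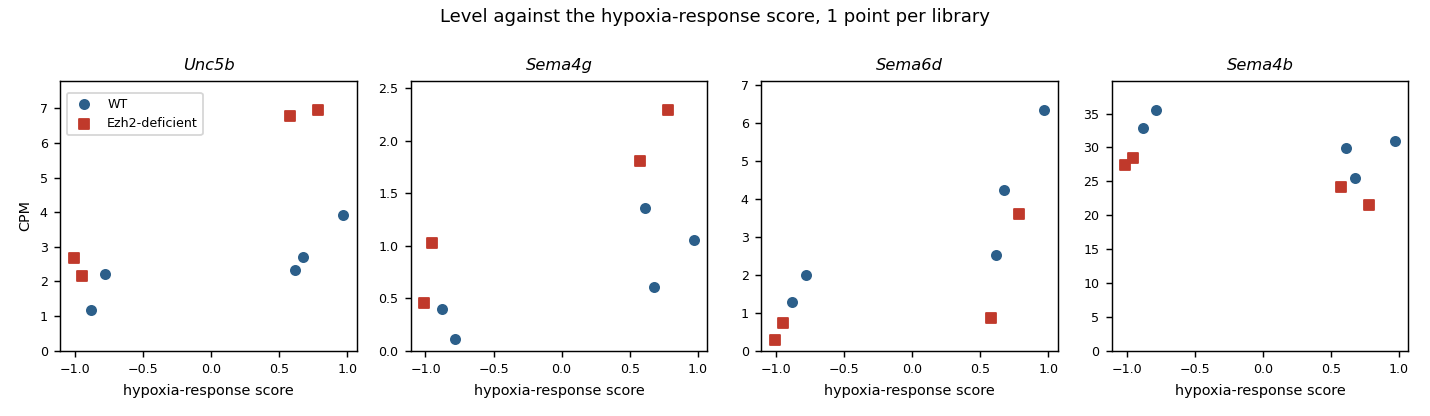
CPM against the hypoxia-response score (mean z-score over 25 genes) for the 4 members that passed with the score as a covariate and not without it, 1 point per library, WT blue circles and Ezh2-deficient red squares. Unc5b is highest, at 6.79 and 6.96 CPM, in the 2 Ezh2-deficient libraries with scores of 0.577 and 0.783.

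Signalling partners of these receptors were listed separately, with earlier results of these data known. The shares of the list and of all genes were not matched for expression level, so their difference is no test of the pathway. Of 88 such genes, among them kinases and cytoskeletal proteins, 82 had a count, 75 were tested, 24 rose and 8 fell, 42.7% against the 21.9% of all tested genes, with a median log2 fold change of 0.18. Without Ezh2-deficient replicate 3 the counts were 13 and 5, or 24% of 75 against 14.1% of all genes in that fit. Without both highest-Cd8a libraries they were 15 and 6, or 28% against 14.7%. Those with the smallest adjusted p among the rises were Srgap3, a GTPase-activating protein that binds Robo receptors (8.58 against 1.62 CPM, log2 fold change 2.40), the kinase genes Ptk2b (224 against 144 CPM, 0.64) and Pak1 (9.72 against 2.33 CPM, 2.07), and Farp1, a plexin-linked exchange factor (44.9 against 27.1 CPM, 0.73), with edgeR adjusted p = 7.6e-05 to 0.000502. Among the falls they were Crmp1, a mediator of semaphorin signals (79.1 against 137 CPM, -0.79), Mical1, an oxidase that acts on actin below plexins (156 against 226 CPM, -0.54), the kinase gene Src (6.26 against 13.5 CPM, -1.10) and the adaptor gene Grb2 (141 against 169 CPM, -0.26), with edgeR adjusted p = 0.00147 to 0.0174. Itgb1, a subunit of the integrin that binds Sema7a, rose to 670 from 301 CPM, and Neo1, the netrin receptor neogenin, to 1.70 from 0.722 CPM (log2 fold change 1.16 and 1.24; edgeR adjusted p = 0.00158 and 0.0348), both singled out after their values were seen.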

How the data were processed

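Whole-number counts per Ensembl gene, not normalized, were deposited for 9 libraries made with a stranded mRNA kit from total RNA, per the labels' protocols. Per the submitters' processing notes STAR and GRCm38 were used. For the counting step, the tool, strandedness and annotation are not stated in the sources used here. Symbols, biotypes, positions and union exon lengths came from GENCODE M21 on GRCm38 (42548 of 43432 identifiers found), and promoter windows from RefSeq on GRCm38.p6.

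Genes were filtered with edgeR's default, scaled with TMM factors and tested with the robust quasi-likelihood F-test (edgeR 4.0.16, R 4.3.3; two-sided, Benjamini-Hochberg, threshold 0.05). SEs and 95% intervals follow from its F statistic. WT replicate 1 stayed in the WT group, as labelled. Each p-value sets the difference between the groups against the spread between these cultures, for which any pooling of mice is not given. Members and lists were chosen with earlier results of these data known. Values in every library are given for Nrp1, Nrp2, members past the threshold and those averaging 10 CPM or more in either group, and for 5 others chosen after their values were seen (Sema6d, Sema4g, Efnb3, Ntn5 and Unc5b). Alternatives were relative log expression scaling, no filter, DESeq2 1.42.0, limma-voom (limma 3.58.1), the replicate number as a block, the hypoxia score as a covariate, and leaving out libraries. The fit was tested on simulated counts with known changes. The lowest chi-square per degree of freedom between libraries of a group was 23.6, so each library counted as 1 replicate. Reads carry no molecular identifiers, so counting intervals cover counting error only. Folds against a floor carry no interval.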

Additional observations from a re-analysis of the deposited data

Results flagged for a closer look

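In 76 groups of libraries (38 tested members in 2 groups), 6 held a library whose gap to the nearest other library exceeded Dixon's 95% critical value. Chance alone flags about 1 in 20 groups. Efnb1 was at 1.07 CPM in Ezh2-deficient replicate 4 against 2.29 to 2.37 CPM in the others, and at 0.926 CPM in WT replicate 2 against 1.88 to 2.12 CPM. Epha2 was at 0.325 CPM in Ezh2-deficient replicate 4 against 0.542 to 0.564 CPM. Sema3d was at 5.97 CPM in WT replicate 5 against 3.53 to 3.94 CPM, Sema6b at 4.31 CPM in WT replicate 4 against 1.01 to 1.91 CPM, and Unc50 at 38.2 CPM in Ezh2-deficient replicate 1 against 34.8 to 35.3 CPM. Of these only Sema6b passed the test between the groups, and it also passed without WT replicate 4 (log2 fold change -1.43).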

How the results depend on the processing

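Of the 9 calls, Ephb2, Ephb6, Ntn1, Ntn4, Sema3b and Sema6b passed in all 16 alternatives, Nrp1 and Plxnb2 in 10 each and Nrp2 in 9. Leaving out 1 library in turn gave 6 to 11 called members, 1972 to 3168 called genes over all tested (1972 without Ezh2-deficient replicate 3), and 18 to 32 called signalling partners (18 without Ezh2-deficient replicate 3). Without both highest-Cd8a libraries, Ezh2-deficient replicate 4 and WT replicate 4, 21 partners passed. Same-numbered libraries deviated together at correlations of 0.153, -0.083, 0.114 and 0.187, so the numbers were not taken as pairs. With the replicate block 10 members passed, 4 higher and 6 lower, beside 2751 of all 13685 genes (20.1%), 1635 higher and 1116 lower. The block ended the calls of Nrp1 (0.31, adjusted p = 0.0783) and Plxnb2 (0.32, adjusted p = 0.0536) in edgeR's test, and Plxnd1 (-0.48, adjusted p = 0.0439), Unc5cl (-0.73, adjusted p = 0.00432) and Sema6d (-1.84, adjusted p = 0.00693) passed with it. Signs turned for 7 members, none of them called. Efna4 was at -0.0130 with relative log expression scaling, -0.0172 with no filter, -0.0099 in DESeq2, -0.0393 with the replicate block, -0.0430 without the highest-Cd8a libraries and -0.2148 to 0.1521 leaving out 1 library. Plxnb1 was at -0.0125 in limma-voom, -0.0077 with the hypoxia covariate and -0.0807 to 0.1150 leaving out 1 library. Sema4c was at 0.1684 without the highest-Cd8a libraries and -0.2309 to 0.0581 leaving out 1 library. Leaving out 1 library also turned Efna5 (-0.0183 to 0.3151), Efnb1 (-0.0078 to 0.3644), Sema3f (-0.0085 to 0.6788) and Unc5a (-0.0179 to 0.3791). The causes were not tested. Depth limits the 13 members that were not tested and those under 1 CPM.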
